A study of Homo sapiens with 6 samples.

Results

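The nuclear genes of oxidative phosphorylation were examined at their promoters in GM12878, a human lymphoblastoid cell line made from B cells. The genes were the autosomal protein-coding genes of GENCODE on hg19 whose symbols begin with the names of complex I (NDUFA, NDUFB, NDUFC, NDUFS, NDUFV), complex II (SDHA to SDHD), complex III (UQCR), complex IV (COX4I, COX5, COX6, COX7, COX8) or ATP synthase, also called complex V (ATP5F1, ATP5M, ATP5P). This rule, which uses names and no measured value, gave 98 of 19229 autosomal coding genes. There were 44 in complex I, 8 in complex II, 9 in complex III, 18 in complex IV and 19 in complex V, with assembly factors that carry the same names counted in. NDUFA4 was placed in complex IV, to which it belongs in spite of its name, and its paralogue NDUFA4L2 was counted with it. Of the 98 genes, 2 were readthrough genes, NDUFC2-KCTD14 and ATP5MF-PTCD1, which share their start with a member. The 3 X-linked subunit genes fell outside the rule.

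The study developed a form of ATAC-seq that works on fixed and stained cells. ATAC-seq uses the Tn5 transposase to place adapters into open chromatin, so that reads pile up where DNA is accessible. All 6 libraries came from GM12878 cells fixed with 1% formaldehyde, and they differed in how the crosslinks were reversed after transposition. In the protocol with SDS (sodium dodecyl sulfate, a detergent) the DNA was purified before PCR, and another used an SDS-free buffer, again with purification. In the third protocol the SDS-free mixture went into PCR without purification. Each protocol had 2 replicates, and the comparison asks whether the buffer or the missing purification changes the libraries. Nothing in the labels says that replicates came from separate cultures, so p-values measure only the spread between these libraries, which may be technical.

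Each library is known here by its list of peaks, which the authors called at a q value of 0.01. The lists held 30136 to 38023 peaks. Read depth was not measured, and the lowest background solved for any peak of a library stood in for it. By this estimate the relative depths of the libraries lay between 1.0 and 1.23 times that of the shallowest. The median peak had 20 to 22 reads at its summit, a whole number that was solved from the fold enrichment and p value of each peak. Among the B cell genes reported here, MS4A1, which codes for the CD20 antigen, had a peak at its start in all 6 libraries, CD79A in 4, CD79B and PAX5 in 1 each, and CD22 in none. No gene of the erythroid and epithelial lists and none of CD3D, CD3E and CD4 had a peak in any library, while CD8A had a peak at its gene start in all 6.

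In oxidative phosphorylation, complexes I to IV of the inner mitochondrial membrane pass electrons from NADH and succinate to oxygen. Complexes I, III and IV also pump protons, while complex II does not, and ATP synthase uses the proton gradient to make ATP. Most subunits are encoded in the nucleus and are made in nearly every cell. Several subunits of complex IV also have paralogues that are made mainly in muscle, lung or testis, and NDUFA4L2 is induced by hypoxia. The nuclear factors NRF1 (nuclear respiratory factor 1), GABP (an ETS family factor, also called NRF2) and YY1 are known regulators of these genes.

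The bases just before the start of the main annotated (Ensembl canonical) transcript are shown for 9 of the genes, so that strongly and weakly accessible starts, and the members of isoform pairs, can be read beside the counts below. Each is 150 bases or fewer from hg19, written 5′ to 3′ on the strand of the gene and cut where an annotated UTR begins. Capitals mark matches on either strand to GCGCATGC (NRF1), CCGGAAG (ETS), AAGATGGCG (YY1), TGACGTCA (CREB), GGGCGG (SP) or CCAAT (NF-Y). COX5B and ATP5F1C hold NRF1 letters, which overlap on both strands in ATP5F1C, and the SP and ETS letters adjoin in COX5B. SDHAF3 had the strongest peak of complex II, and NDUFS5 had a peak in the SDS-free libraries only.
COX5B (chr2:98262375-98262524, plus strand): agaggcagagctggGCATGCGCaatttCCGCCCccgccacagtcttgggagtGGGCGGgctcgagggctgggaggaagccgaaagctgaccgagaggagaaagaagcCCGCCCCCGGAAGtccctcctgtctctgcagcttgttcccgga
ATP5F1C (chr10:7829990-7830139, plus strand): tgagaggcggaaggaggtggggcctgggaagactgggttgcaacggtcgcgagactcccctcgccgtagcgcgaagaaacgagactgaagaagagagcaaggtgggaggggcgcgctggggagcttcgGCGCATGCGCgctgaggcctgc
SDHAF3 (chr7:96746860-96747009, plus strand): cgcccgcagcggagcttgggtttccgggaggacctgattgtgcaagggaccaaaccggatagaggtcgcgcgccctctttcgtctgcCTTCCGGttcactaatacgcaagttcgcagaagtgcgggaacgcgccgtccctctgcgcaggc
NDUFS5 (chr1:39491872-39491989, plus strand): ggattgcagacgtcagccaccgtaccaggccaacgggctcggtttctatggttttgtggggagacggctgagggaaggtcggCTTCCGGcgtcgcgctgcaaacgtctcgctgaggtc
The next 5 starts are COX6A1 with its muscle paralogue COX6A2, COX8A with its testis paralogue COX8C, and ATP5F1D, a subunit of ATP synthase with no peak at its start.
COX6A1 (chr12:120875766-120875915, plus strand): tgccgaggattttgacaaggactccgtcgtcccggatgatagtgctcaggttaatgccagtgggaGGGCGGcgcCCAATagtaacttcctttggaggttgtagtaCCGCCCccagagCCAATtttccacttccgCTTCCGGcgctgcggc
COX6A2 (chr16:31439682-31439831, minus strand): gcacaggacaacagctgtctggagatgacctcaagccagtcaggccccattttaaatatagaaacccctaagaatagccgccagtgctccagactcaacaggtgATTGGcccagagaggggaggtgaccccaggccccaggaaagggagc
COX8A (chr11:63741942-63742091, plus strand): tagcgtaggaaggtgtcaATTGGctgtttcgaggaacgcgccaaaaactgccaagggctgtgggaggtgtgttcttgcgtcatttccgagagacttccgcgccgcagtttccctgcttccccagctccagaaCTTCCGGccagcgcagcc
COX8C (chr14:93813378-93813527, plus strand): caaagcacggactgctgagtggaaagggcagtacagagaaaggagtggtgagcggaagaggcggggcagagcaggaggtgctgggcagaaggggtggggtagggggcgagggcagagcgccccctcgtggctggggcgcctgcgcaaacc
ATP5F1D (chr19:1241600-1241744, plus strand): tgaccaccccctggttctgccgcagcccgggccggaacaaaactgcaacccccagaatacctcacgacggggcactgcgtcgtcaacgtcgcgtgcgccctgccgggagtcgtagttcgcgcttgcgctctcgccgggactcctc

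COX6A1 and COX6A2 differ in these bases. COX6A1 holds 11 CpG dinucleotides and letters of ETS, SP and NF-Y, while COX6A2 holds 1 CpG and NF-Y letters alone. COX8A holds 11 CpG with ETS and NF-Y letters, and COX8C holds 8 CpG and none of the letters searched. In its printed bases ATP5F1D holds 18 CpG and none of the 6 motifs. In the wider window of 250 bases before to 50 after the canonical start, ATP5F1D has 2 SP matches and COX8A has 1.

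A gene was counted as called in a library where a peak overlapped the 1 kb on either side of its gene start, the outermost 5′ end of the gene in the annotation. Most oxidative phosphorylation genes were called, and each library called a larger share of them than of all genes. With SDS, 77 of the 98 genes (78.6%) were called in replicate 1 and 72 (73.5%) in replicate 2, beside 48.2% and 46.6% of all 19229 genes. In the SDS-free purified libraries 80 (81.6%) and 75 (76.5%) were called, beside 50% and 47% of all genes. In the SDS-free unpurified libraries 75 (76.5%) and 76 (77.6%) were called, beside 49.7% and 49.5%. The means were 76.0% ± 3.61 with SDS, 79.1% ± 3.61 for SDS-free purified and 77.0% ± 0.722 for SDS-free unpurified (SD, n = 2 each). The shares of the 3 protocols overlapped, with the lowest and the highest share both in purified libraries. No test was run on these shares, since 2 libraries against 2 cannot go below 0.333 in a two-sided exact permutation test.

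Of the 98 genes, 66 (67.3%) were called in all 6 libraries, beside 41% of all genes. Another 16 (16.3%) were called in none, beside 44.6% of all genes, and 16 (16.3%) were called in 1 to 5 libraries, a share near the 14.3% of all genes. For 17 of the genes the gene start lay over 1 kb from the canonical start, because another annotated transcript begins further upstream. At the canonical start, which was chosen after the data were seen, 73 of the 98 genes (74.5%) were called in all 6 libraries and 9 (9.18%) in none, beside 43.4% and 41.6% of all genes.

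**Figure D1:**
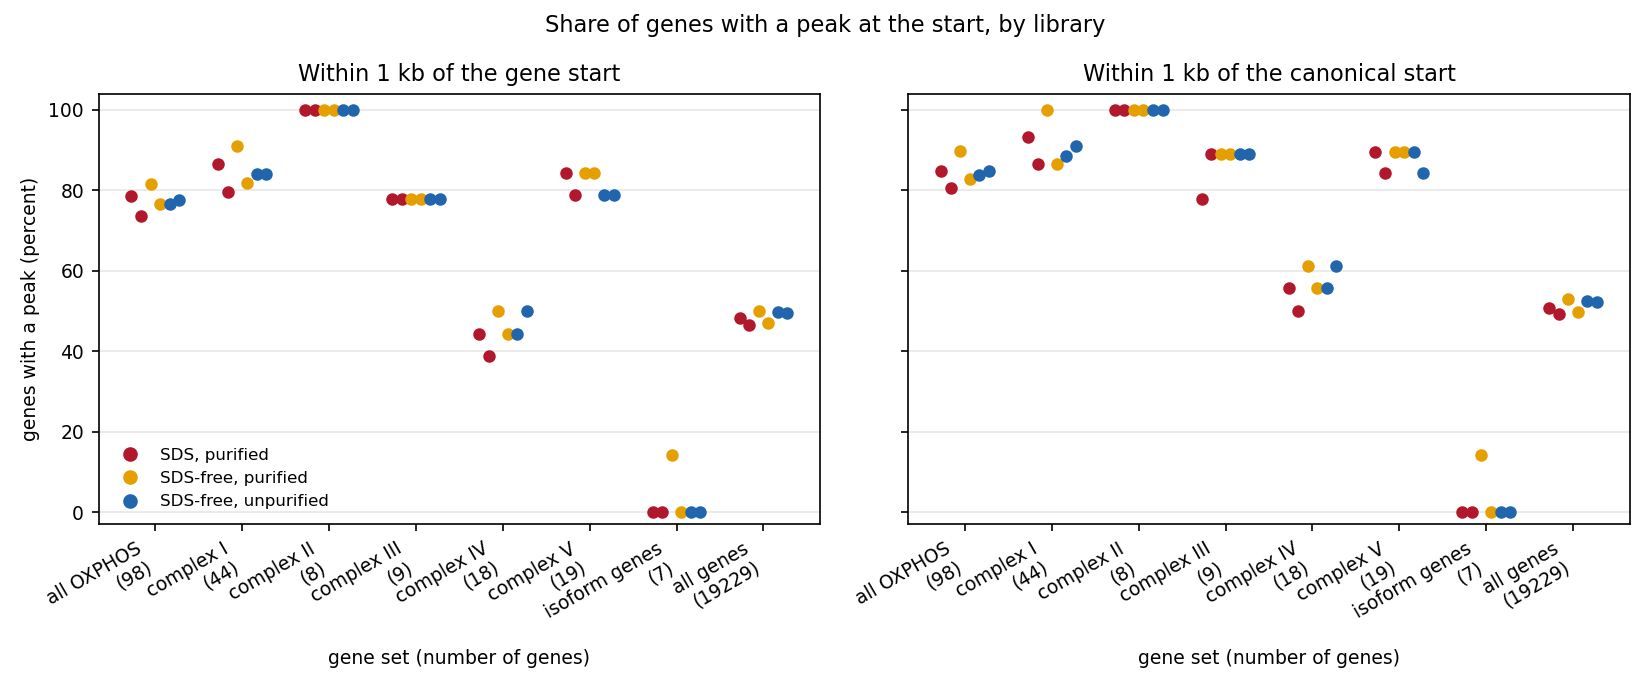
Percent of genes with a peak within 1 kb of the gene start (left) or canonical start (right), with 1 point per library coloured by protocol and the number of genes of each set below. All 8 genes of complex II are at 100% in each library, complex IV lies between 38.9% and 50% at the gene start, and all genes lie between 46.6% and 50%.

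The share called differed among the complexes. All 8 genes of complex II were called in all 6 libraries. These are the subunits of succinate dehydrogenase, SDHA to SDHD, and the assembly factors SDHAF1 to SDHAF4. Complex III had 7 of 9 genes called in all 6 libraries (77.8%), complex V 14 of 19 (73.7%) and complex I 30 of 44 (68.2%). Complex IV had the lowest share at 7 of 18 (38.9%), near the 41% of all genes. Its share in a library was 38.9% to 50%, beside 46.6% to 50% of all genes. None of its 7 isoform genes was called in all 6 libraries, while 7 of its 10 common subunits (70.0%) were. At the canonical start the counts were 33 of 44 for complex I, 8 of 8 for complex II, 7 of 9 for complex III, 9 of 18 for complex IV and 16 of 19 for complex V. Every gene of complex I then had a peak in at least 1 library.

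**Figure D2:**
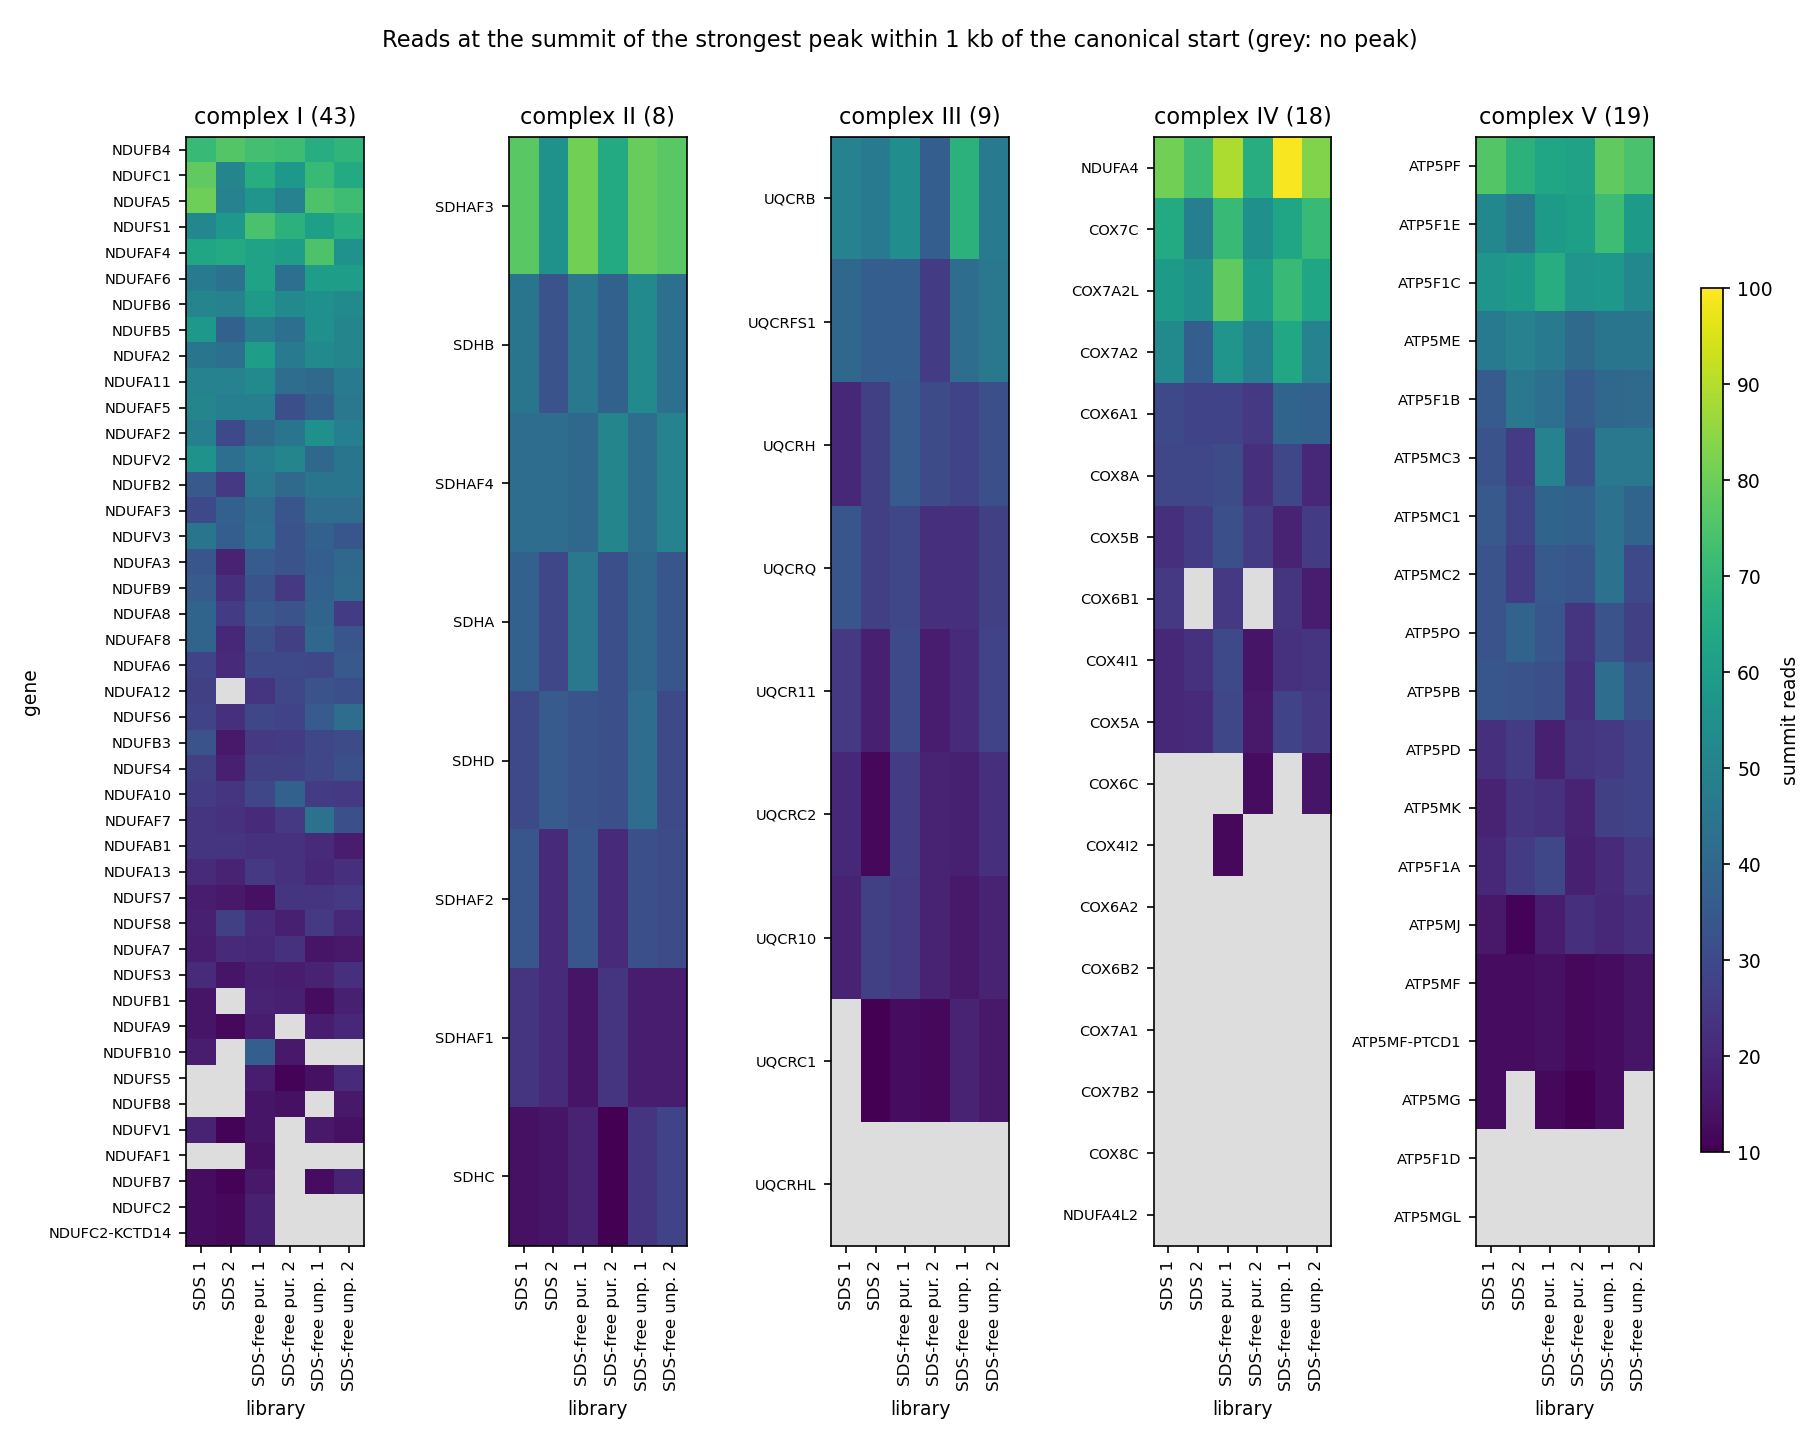
Reads at the summit of the strongest peak within 1 kb of the canonical start, for 97 of the 98 genes (rows, by complex) in the 6 libraries (columns, by protocol and replicate), with grey where no peak was called. The brightest row is NDUFA4 with 66 to 99 reads, and 6 of the 7 isoform genes of complex IV are grey throughout.

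The starts of complex II ranged widely in strength. SDHAF3, an assembly factor that promotes maturation of the iron-sulfur subunit, had 77 and 56 reads at the summit with SDS, 81 and 65 in SDS-free purified, and 79 and 77 in SDS-free unpurified libraries. Its peak at chr7:96746567-96747471 (hg19, all libraries merged) had a mean −log10 q of 49.6, the highest among the 66 genes called in all 6 libraries. SDHC, a membrane anchor of the complex, had a mean −log10 q of 10.1, with 14 and 15 reads with SDS, 19 and 10 in SDS-free purified, and 24 and 28 in SDS-free unpurified libraries. SDHA, the flavoprotein that oxidises succinate, had 29 to 46 reads. SDHB, the iron-sulfur subunit, had 33 to 53 reads.

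In complex I the strongest start by mean −log10 q was NDUFB4, an accessory subunit of the membrane arm, with 71, 76, 73, 72, 66 and 69 reads in the 6 libraries, in the order SDS, SDS-free purified and SDS-free unpurified, replicate 1 before 2. Its values spread little, and its mean −log10 q was 46.3. The weakest start called in all 6 libraries was NDUFA7, an accessory subunit, with 15 to 23 reads and a mean −log10 q of 9.65. NDUFA7 and the ribosomal protein gene RPS28 start within 1 kb of each other, so a peak there belongs to both. NDUFS1, the core subunit with the most iron-sulfur clusters, had 52 to 74 reads.

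Core subunits of complex I differed by the start that was used. NDUFV1, which binds NADH and FMN, was called in 2 libraries at its gene start and in 5 at its canonical start, 1283 bp away. There it had 19 and 11 reads with SDS, 15 in SDS-free purified replicate 1, and 16 and 14 in the unpurified libraries, and no peak in SDS-free purified replicate 2. NDUFS3, a core subunit of the peripheral arm, went from 5 to 6 libraries, with 15 to 22 reads at the canonical start. The accessory subunit NDUFB2 went from 0 to 6 libraries, with 25 to 46 reads. The assembly factor NDUFAF1 went from 0 libraries to 1, SDS-free purified replicate 1, with 14 reads.

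Of the 16 genes called in 1 to 5 libraries, 8 were accessory subunits of complex I, which number 28 of the 98 genes. These 8 are 28.6% of the accessory subunits, beside 14.3% of all genes called in 1 to 5 libraries. NDUFS5 had 17 and 11 reads in the SDS-free purified libraries, 14 and 21 in the unpurified libraries, and no peak in either SDS library. It was the only gene of the 98 called in all 4 SDS-free libraries and in no SDS library, a pattern that 0.291% of all genes showed. Its peak at chr1:39491972-39492594 had its summit in an intron, 371.5 bp into the gene. The opposite pattern, both SDS libraries and no other, was found for none of the 98 genes and for 19 of all genes (0.0988%). None of the 98 genes was called in both SDS-free purified libraries and no other (0.12% of all genes) or in both SDS-free unpurified libraries and no other (0.208%). None was missing from both SDS-free purified libraries alone (0.14% of all genes) or from both SDS-free unpurified libraries alone (0.052%).

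The other accessory subunits were called in other sets of libraries. NDUFB10 had 17 reads in SDS replicate 1, 37 and 16 in the SDS-free purified libraries, and no peak in the other 3. NDUFB8 had 15 and 14 reads in the SDS-free purified libraries and 16 in SDS-free unpurified replicate 2. NDUFC2, which shares its start with the readthrough gene NDUFC2-KCTD14, had 13 and 12 reads with SDS and 18 in SDS-free purified replicate 1. NDUFA12 and NDUFB1 were missed in SDS replicate 2 alone, and NDUFA9 and NDUFB7 in SDS-free purified replicate 2 alone. Where it was called, NDUFA12 had 24 to 33 reads, and the other 3 had 11 to 20.

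In complex III, UQCRB, a small subunit near the ubiquinone site, had the strongest start with a mean −log10 q of 30.2 and 37 to 68 reads. UQCRC2, a core protein, had the weakest of those called in all 6 libraries, with a mean −log10 q of 9.54 and 12 to 26 reads. UQCRFS1, the Rieske iron-sulfur protein, had 26 to 46 reads. UQCRC1, the other core protein, was called in no library at its gene start. At its canonical start 1330 bp away it had 10 reads in SDS replicate 2, 13 and 12 in the SDS-free purified libraries, and 19 and 16 in the unpurified libraries. UQCRHL, an intronless copy of UQCRH, had no peak in any library. Its sequence is close to that of UQCRH and reads of low mapping quality were removed by the authors, so the call there is uncertain.

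In complex IV, NDUFA4 had the highest median of reads over the 6 libraries among all 98 genes (82.0), with 81 and 72 with SDS, 89 and 66 in SDS-free purified, and 99 and 83 in SDS-free unpurified libraries. Its summit lay at -402 bp, upstream of the start. COX4I1, the common form of the largest nuclear subunit, had the weakest peak of those called in all 6 libraries by mean −log10 q (12.1), with 20 and 23, 30 and 15, and 23 and 24 reads. COX6B1 was called in 4 libraries with 17 to 25 reads, and was missed in replicate 2 of both purified protocols. COX6C was called in 2 libraries, SDS-free purified and unpurified replicate 2, with 13 and 15 reads. COX7A2L, which links complexes III and IV in supercomplexes, was called only at its canonical start, in all 6 libraries with 55 to 78 reads.

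The tissue-restricted isoforms stood at the low end of complex IV. Only COX4I2, the lung form of subunit 4, was called, in 1 library, SDS-free purified replicate 1, with 12 reads. COX6A2 and COX7A1 of heart and skeletal muscle, COX6B2, COX7B2 and COX8C of testis, and the hypoxia-induced NDUFA4L2 had no peak in any library at either start. A lack of any peak was common, at 44.6% of all genes at the gene start and 41.6% at the canonical start. The nearest peaks lay 14389 to 14655 bp from the start of COX6A2, 11104 to 12265 bp from COX7A1 and 14602 to 14747 bp from COX6B2. They lay 64663 to 101716 bp from COX7B2 and 13749 to 13867 bp from COX8C. NDUFA4L2 had a peak 1998 to 2018 bp from its canonical start in 3 libraries and none nearer than 6937 bp in the others.

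The common partners were called. At the canonical start COX4I1, COX6A1, COX7A2, COX8A and NDUFA4 were called in all 6 libraries and COX6B1 in 4. The X-linked partner COX7B was called in all 6, with 26 to 37 reads. COX6A1 had 30 and 28 reads with SDS, 28 and 25 in SDS-free purified, and 39 and 38 in SDS-free unpurified libraries. COX7A2 had 53 and 37, 57 and 49, and 64 and 50 reads at its canonical start, which lies 6522 bp from its gene start. COX8A had 29 and 29, 31 and 22, and 29 and 20 reads. At the canonical start, in every pair but COX6B1 and COX6B2, the common gene was called in all 6 libraries and the isoform in at most 1. At its gene start COX7A2 was called in no library, so its contrast with COX7A1 rests on the canonical start.

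**Figure D3:**
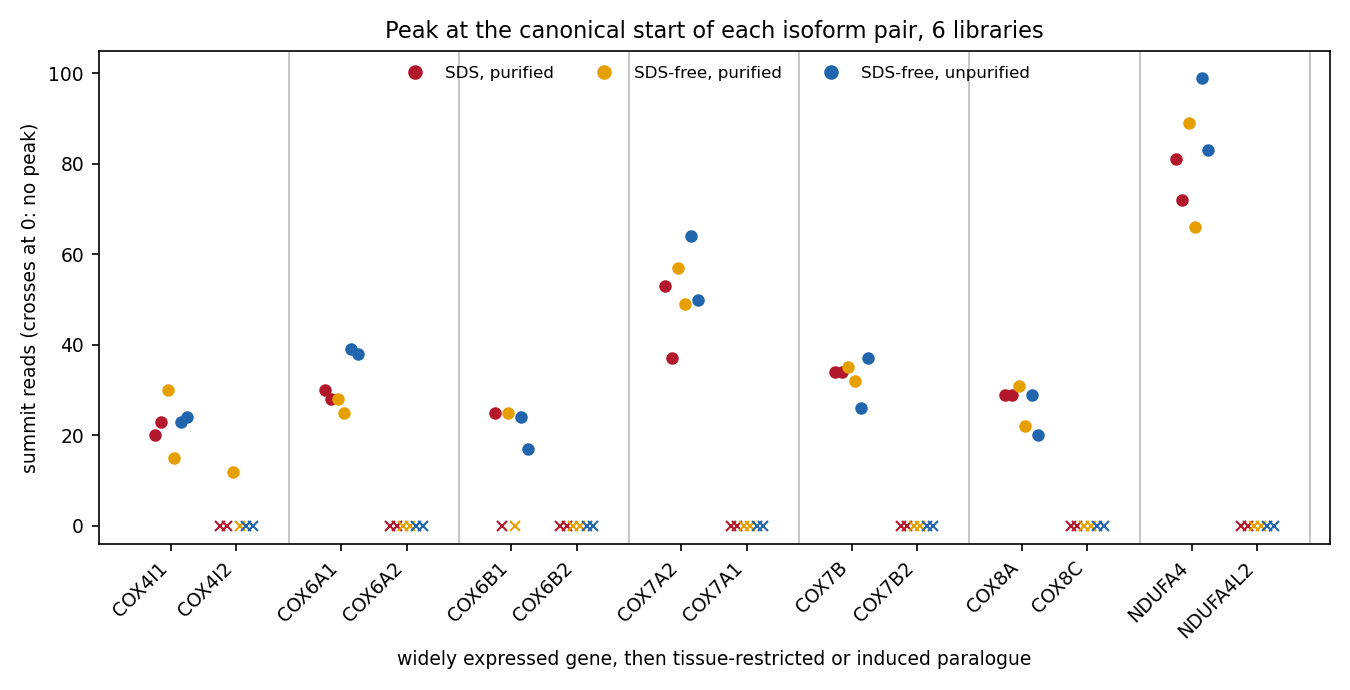
Reads at the summit of the peak at the canonical start for each common subunit gene and, to its right, its tissue-restricted or hypoxia-induced paralogue, with 1 point per library coloured by protocol and a cross at 0 where no peak was called. The only isoform point above 0 is COX4I2 at 12 reads.

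In ATP synthase, ATP5F1E, the epsilon subunit of the F1 head, had the strongest start by mean −log10 q, with 52 and 46, 59 and 61, and 72 and 59 reads and a value of 39.1. ATP5MF, the f subunit of the membrane part, was the weakest of those called in all 6 libraries, with 12 to 15 reads and a mean −log10 q of 5.83. It shares its peak with the readthrough gene and with PTCD1. ATP5F1B, the catalytic beta subunit, had 36 to 46 reads. ATP5F1A, the alpha subunit, was missed in SDS-free unpurified replicate 1 at its gene start, and had 18 to 29 reads in all 6 libraries at its canonical start.

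The delta subunit gene ATP5F1D was the only subunit of the F1 head with no peak within 1 kb. The nearest peak lay 1160 to 1306 bp from its start in every library, with 14 to 31 reads, just outside the window. ATP5MG, the g subunit, was called in 4 libraries with 10 to 13 reads, and its paralogue ATP5MGL in none. ATP5MJ, a small proteolipid of the membrane part, was called only at its canonical start, in all 6 libraries with 11 to 22 reads.

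The genes called in all 6 libraries had peaks much like those of other genes. The median of their summit reads was 33.2, beside 35.5 for all genes called in all 6 libraries, and it ranged from 13 to 82. The medians of mean −log10 q were 18.7 and 19.3, those of fold enrichment 7.75 and 7.46, and those of peak width 623.8 and 664.5 bp. At the canonical start the summit lay at a median of -88.0 bp from the start (upstream is negative), beside -81.5 bp for all genes. It lay within 200 bp of the start for 84.9% of these genes, beside 80.3%.

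The genes called in only some libraries had low summits. Their 59 peaks had 10 to 37 reads with a median of 16, while the 396 peaks of the genes called in all 6 libraries had 10 to 99 reads with a median of 33. Of these 16 genes, 11 and 6 were called with SDS, 14 and 9 in SDS-free purified, and 9 and 10 in SDS-free unpurified libraries. The lowest count was in SDS replicate 2 (34826 peaks), and the highest in SDS-free purified replicate 1, which had the most peaks (38023). SDS-free purified replicate 2 had the fewest peaks (30136) and called 9 of the 16. The part of peak number and depth in these counts was not tested.

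Many of the genes share their promoter with a neighbour. Another coding gene started within 1 kb of 37 of the 98 genes (37.8%), beside 16.1% of all genes. Of these 37, 29 (78.4%) were called in all 6 libraries, beside 70.6% of all genes with a shared start. Of the 61 without a shared start, 37 (60.7%) were called in all 6 libraries, beside 35.3%. The oxidative phosphorylation genes were called more often than all genes in both classes, by a smaller margin where the start was shared, and this difference in margin was not tested.

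The NRF1, ETS, YY1 and CREB letters were in a larger share of these promoters than of all promoters, and the SP and NF-Y letters were not. RefSeq promoters (GRCh38.p14, 250 bases before to 50 after the start) were matched by symbol for 78 of the 98 genes and for 14591 of all autosomal genes. The NRF1 letters were in 16 of the 78 (20.5%), beside 4.18% of all promoters and 6.98% of those with a peak in all 6 libraries at the canonical start. The ETS letters were in 22 (28.2%), beside 14.6% and 22.5%. The YY1 letters were in 8 (10.3%), beside 2.86% and 4.58%, and the CREB letters in 5 (6.41%), beside 2.69% and 3.72%. The SP letters were in 46 (59.0%) beside 59.7% and 73.5%, and the NF-Y letters in 25 (32.1%) beside 36.3% and 41.0%.

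All 16 promoters with NRF1 letters belonged to genes called in all 6 libraries at the canonical start, as did 62 of the 78 matched promoters (79.5%). Of all autosomal promoters with NRF1 letters, 77.7% (474 of 610) belonged to such genes, beside 46.6% of all promoters. The 16 include NDUFB4, SDHB, COX5B, COX6A1, ATP5F1C and ATP5PF. ATP5PF held the NRF1 letters at its RefSeq start and not at its hg19 canonical start, while NDUFA5 showed the reverse. The letters in COX6A1 lie outside the bases printed above. The medians of summit reads were 33.8 for the 16 genes with NRF1 letters and 32.8 for the 46 others called in all 6 libraries. For the ETS letters they were 29.0 in 19 genes with them and 35 in 43 without, so the genes with ETS letters had the lower median. The median ratio of observed to expected CpG was 0.844, beside 0.772 for all promoters and 0.864 for those called in all 6 libraries. A match is a description of the letters and was not tested as a site.

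**Figure D4:**
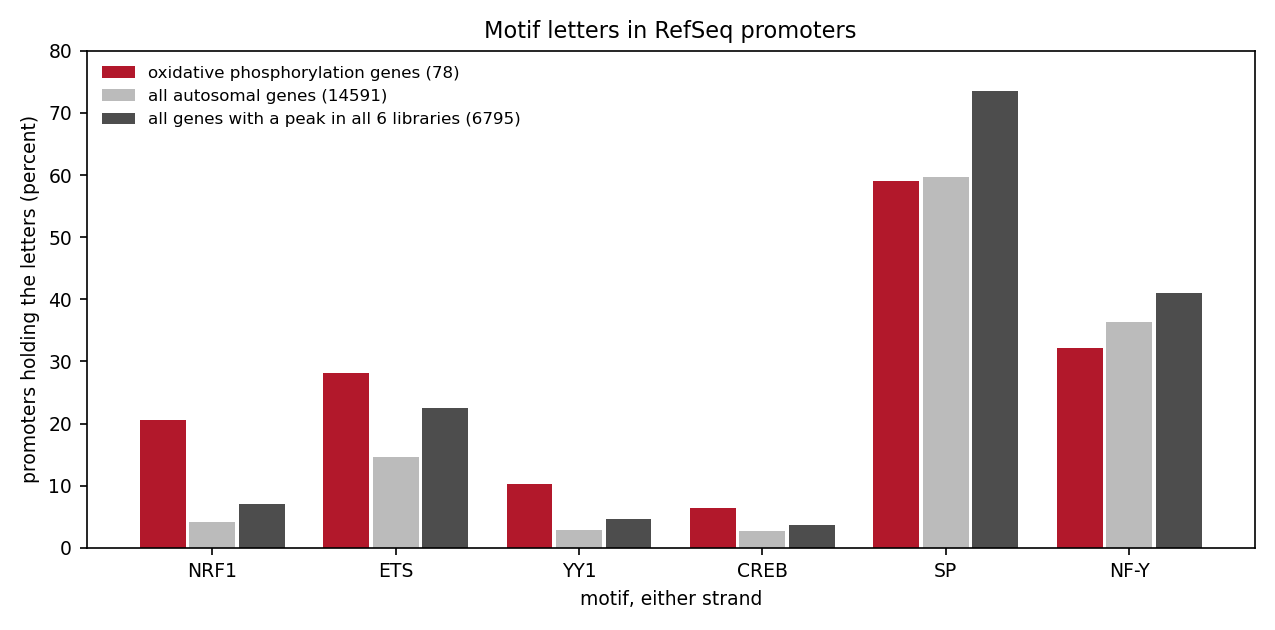
Percent of RefSeq promoters that hold the letters of each motif on either strand, for 78 oxidative phosphorylation genes (red), 14591 autosomal genes (light grey) and the 6795 of these with a peak in all 6 libraries (dark grey). The red bar is the highest for NRF1 (20.5%), ETS (28.2%), YY1 and CREB, and is not the highest for SP and NF-Y.

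The fold enrichment of the promoter peak was compared between protocols with limma, on log2 values centred on the median of each library, over the 7889 genes called in all 6 libraries. No gene passed an adjusted p of 0.05 in any of the 3 comparisons, so that 0% of genes were called, and none of the 66 oxidative phosphorylation genes in the fit. At an unadjusted p below 0.05 there were 475, 447 and 378 genes (6.02%, 5.67% and 4.79%), of which 2, 7 and 5 were oxidative phosphorylation genes. The comparisons share libraries, so their counts are not independent. The median log2 difference of the 66 genes was -0.028 for SDS-free purified against SDS, beside -0.0090 for all genes. For SDS-free unpurified against SDS it was -0.057 beside -0.012, and for SDS-free unpurified against purified 0.0063 beside -0.0014.

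The largest difference of a member between the purified protocols was that of UQCRC2. Its fold enrichment was 5.74 and 4.71 with SDS, 8.71 and 6.13 in SDS-free purified, and 4.66 and 6.15 in SDS-free unpurified libraries. The difference of SDS-free purified against SDS was 0.44 (SE 0.198) on the log2 scale, with an adjusted p of 0.807 by limma with Benjamini-Hochberg adjustment. The libraries of the 2 protocols did not overlap, but SDS-free purified replicate 1 set much of the distance, which was 0.23 without it. The difference was 0.65 without SDS-free purified replicate 2, 0.57 without SDS replicate 1 and 0.31 without SDS replicate 2.

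For SDS-free unpurified against SDS the largest was COX8A, whose fold enrichment was 8.57 and 10.3 with SDS, 9.52 and 6.97 in SDS-free purified, and 8.52 and 4.73 in SDS-free unpurified libraries. The difference was -0.60 (SE 0.232, adjusted p = 0.724, limma). It was -0.21 without SDS-free unpurified replicate 2 and -0.999 without SDS-free unpurified replicate 1. For SDS-free unpurified against purified the largest was SDHC, with 4.75 and 6.35 with SDS, 6.58 and 4.23 in SDS-free purified, and 8.39 and 8.68 in SDS-free unpurified libraries. Both unpurified libraries lay above the other 4. The difference was 0.71 (SE 0.203, unadjusted p = 0.0038, adjusted p = 0.772, limma), with a 95% interval of 0.27 to 1.15. It was 0.43 without SDS-free purified replicate 2 and 0.99 without SDS-free purified replicate 1.

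A difference that missed the threshold does not show equal accessibility, but the intervals bound it. For all 66 genes in the purified comparison, 64 for unpurified against SDS and 65 for unpurified against purified, the 95% interval lay within 1 log2 unit of no change. The median standard error of a gene was 0.169.

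**Figure D5:**
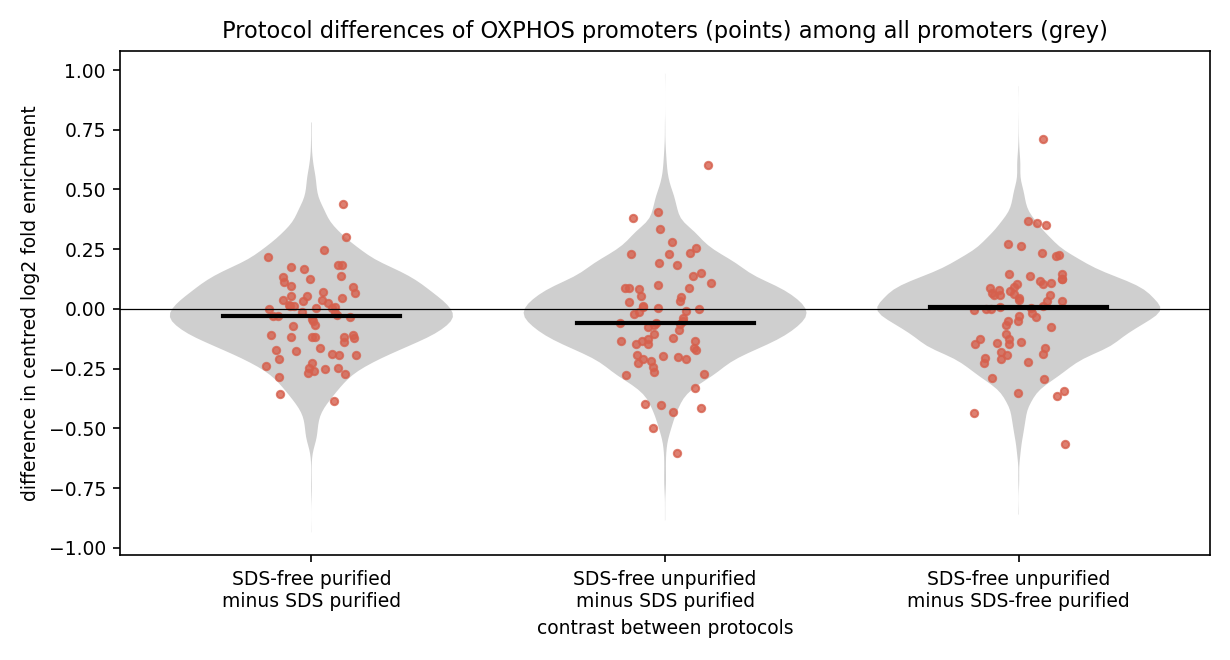
Difference in centred log2 fold enrichment between protocols for 66 oxidative phosphorylation promoters (points, with a black bar at their median) and for all 7889 promoters called in all 6 libraries (grey shapes), in the 3 comparisons. The points lie within the grey shapes, and the highest, SDHC at 0.71, is in the comparison of the SDS-free protocols.

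The pathway has genes outside the name rule, and most of these were called too. Of 30 such carriers, subunits and assembly factors, 22 (73.3%) were called in all 6 libraries at the gene start and 25 (83.3%) at the canonical start. The shares of all genes were 41% and 43.4%. UQCC3 (assembly of complex III), ATPAF1 (assembly of the F1 head) and NUBPL (iron-sulfur assembly of complex I) were called in no library at the gene start and in all 6 at the canonical start. COX19, a factor in copper delivery, was called in 5 libraries, ECSIT, a complex I assembly factor, in 4, and UQCC1, which acts with UQCC2 in assembly of complex III, in 1. COX16, an assembly factor of complex IV, was called in 2 at its canonical start and in none at its gene start. SURF1, an assembly factor of complex IV, had no peak at either start.

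Among 10 regulators, 9 were called in all 6 libraries, with a median of 21.0 to 78.0 summit reads. These were NRF1, GABPA, GABPB1, TFAM, TFB2M, PPARGC1B, PPRC1, ESRRA and YY1. PPARGC1A, a coactivator that is high in muscle, brown fat and liver, had no peak at its start in any library.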

How the data were processed

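Peak lists of 6 bulk ATAC-seq libraries were used, with groups and replicate numbers taken from the labels. Per the labels' processing notes and the methods, the authors mapped reads to hg19 with Bowtie2 2.1.0, removed duplicates with Picard 1.79, and called narrow peaks with MACS2 (version not given in the sources used here) at a q value of 0.01. The methods speak of merging reads of the same condition before peak calling, but 1 list per library was deposited, and the lists of both replicates of a protocol differ. The deposited lists give a score (−log10 q times 10), the ratio of summit to background reads (fold enrichment), and the −log10 p-value and −log10 q-value as the authors' caller wrote them.

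Genes came from GENCODE version 44 lifted to GRCh37, the same build. A gene was called where at least 1 base of a peak lay within 1 kb of its start, and the peak with the highest −log10 q gave its values. Summit reads were solved from fold and p value, within 0.001 in −log10 p for 100% of peaks. They are the depth behind a call. Log2 fold enrichment was fitted with limma 3.58.1 in R 4.3.3 over 7889 genes. In simulated data for SDS-free purified against SDS, 50 genes each were changed by 0.5, 1, 2 or 3 on the log2 scale. Of these, 22 of 50 changed by 0.5 and 49 of 50 changed by 1 were recovered, with 7 false calls. Every simulated gene had the same spread, and the large planted changes ease the adjustment. The recovered counts therefore do not give the power of the fit to the real data. Overlaps were checked against bedtools 2.31.1.

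Genes were named where they were isoforms or their partners, lacked a peak in at least 1 library, were the strongest or weakest of a complex by mean −log10 q, had the largest difference of a comparison, or were listed core subunits. Members and gene lists were chosen with earlier results of these data known. The alternatives set for the analysis were a −log10 q of at least 5, other windows and starts, other overlap rules, an equal number of peaks, no shared starts, no centring, summit reads in place of fold, the replicate number as a block, and each replicate left out. The canonical start and the motif search on hg19 were added after the data were seen. A few single genes and sequences are not reported here.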

Additional observations from a re-analysis of the deposited data

How the results depend on the processing

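Of the 45 recomputed shares of called genes, 29 moved by less than the spread between replicates. This count includes the shares with 1 replicate left out, which could not move by more than that spread. All 16 shares that moved more came from the other alternatives, so the count is no measure of stability. The mean share for SDS-free unpurified libraries, whose replicates differed least, was 77.0% and became 75% with peaks of −log10 q of at least 5, 74.0% within 500 bp, 80.6% within 2 kb, 74.5% where the summit had to lie in the window, 75% with 100 bp covered and 75% with equal peak numbers. With any start of a coding transcript and with the canonical start alike, the shares rose to 82.7% with SDS, 86.2% for SDS-free purified and 84.2% for SDS-free unpurified. Under both of these settings 73 of the 98 genes were called in all 6 libraries. The share of all genes called in all 6 libraries rose too. It was 41% at the gene start, 43.4% at the canonical start and 46.1% with any coding start. Shares of all genes with other windows, overlap rules or peak thresholds are not reported here. Without genes that share a start, the shares of oxidative phosphorylation genes were 68.0%, 71.3% and 69.7%. In that smaller set 37 of 61 genes (60.7%) were called in all 6 libraries, in place of 66 of 98 (67.3%). With equal peak numbers the SDS share was 70.4%. Leaving out each replicate gave 73.5% to 78.6%, 76.5% to 81.6% and 76.5% to 77.6%, and 66 to 68 genes called in all. The count of isoform genes called was 1 and became 2 within 2 kb (COX4I2 and NDUFA4L2) and 0 with equal peak numbers, and it lay between 0 and 1 when each replicate was left out, with 0 without SDS-free purified replicate 1. The cause of these moves was not tested, beyond the window or peaks that each alternative takes away or adds.

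The limma comparisons called 0 genes under every alternative that was run, at 353 to 528, 327 to 546 and 295 to 459 genes with an unadjusted p below 0.05. With 1 replicate left out, the lone library was assumed to vary like the other groups. With the replicate number as a block, 0 genes were called in each comparison as well. No pairing by replicate number was seen, as the deviations of libraries with the same number correlated at 0.0186, -0.0304 and 0.0101. The values were centred per library, so a shift of a whole library could not show here. Whether equal numbers share a batch is not known. The differences of UQCRC2, COX8A and SDHC kept their direction under every alternative that held the gene. The 6 motif shares stayed within their 95% Wilson intervals when hg19 was searched at the canonical start. A start with few reads at its summit can fall on either side of the peak threshold, so a missing call says only that no peak was called at this depth.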

Other observations

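ATP5PF, a stalk subunit of ATP synthase, and GABPA, which codes for the DNA-binding part of GABP, start on opposite strands beside each other on chromosome 21 and had the same summit reads in all 6 libraries, 76 and 68 with SDS, 63 and 62 in SDS-free purified, and 78 and 74 in SDS-free unpurified libraries. Both genes thus read the same peak, at chr21:27106975-27108317. The pair was singled out after its values were seen. The strongest peak of NDUFC1 had its summit 1088 bp inside the gene, and that of NDUFA11 lay at -825 bp, upstream of its start and toward VMAC. Of the X-linked subunit genes, NDUFB11 and COX7B were called in all 6 libraries and NDUFA1 in 5, with 22 to 32 reads for NDUFA1 where it was called. The T cell gene CD8A, called in all 6 libraries at its gene start with 15 to 23 reads, was called in none at its canonical start.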
